A study of Rattus norvegicus with 6 samples.

Results

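The 9 genes described here belong to receptor-operated and store-operated calcium entry and were followed in the thoracic aorta of hypertensive and normotensive rats. They are the canonical transient receptor potential channel genes Trpc1, Trpc4, Trpc5 and Trpc6, the store sensor genes Stim1 and Stim2, and the ORAI channel genes Orai1, Orai2 and Orai3. Members were taken by symbol from the platform annotation, keeping probe sets that name 1 gene. All 9 were found, each on 1 probe set, out of 18166 genes named in this way. The set was chosen by the SHR minus WKY difference of Trpc4, which had stood out on these same arrays, so that contrast is given for the members as a description, with no p-value. The 2 groups were spontaneously hypertensive rats (SHR), an inbred strain with high blood pressure, and Wistar-Kyoto rats (WKY), its usual normotensive comparison strain, with 3 arrays each. All rats were 24 weeks old and had no treatment beyond tail blood pressure measurement, and the aorta was freed of adhering fat and connective tissue before total RNA was extracted. Nothing in the labels tells the sex of the rats or whether each array held a separate animal, so the spread between arrays may be technical.

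Smooth muscle cells of arteries take up calcium through several routes besides voltage-gated channels. When receptors coupled to Gq activate phospholipase C, the resulting IP3 empties the sarcoplasmic reticulum and diacylglycerol is formed. STIM proteins sense the fall of calcium in the store and open ORAI channels of the plasma membrane, whereas TRPC channels are cation channels opened downstream of phospholipase C, some of them directly by diacylglycerol. Calcium entering by these routes supports contraction and activates calcineurin and the NFAT transcription factors.

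Values are log2 levels after RMA, a method that corrects background, equalizes the distributions of the arrays and summarizes the probes of each probe set. Levels of different probe sets depend on their probes, so each gene is compared only with itself across arrays. No detection call exists, and a level near the medians of the arrays, 2.29 to 2.52, is not shown to lie above background. Where 3 levels of a strain are listed, they follow the replicate numbers. WKY replicate 3 stood apart. Its values spread less over the probe sets (SD 2.12, elsewhere 2.22 to 2.27), and it held the lowest value of 28.3% of the tested probe sets and the highest of 30.5%. Smooth muscle markers were bright on every array, with a mean level from 9.33 to 9.68 in SHR and from 9.55 to 9.71 in WKY over the 6 of 8 listed genes that had a probe set. In whole tissue, fewer cells of a type and less RNA per cell cannot be told apart.

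The start regions of 4 genes are shown first: Trpc4 and the gene next to it, Postn, as the adjacent pair whose strains separated, and Stim1 and Orai1 as the core sensor and pore of store-operated entry, whose strains overlapped. RefSeq promoter windows of assembly GRCr8, from 250 bases before to 50 bases after the annotated start, were at hand for 7 of the 9 members. They come from the reference rat, not from SHR or WKY, and the start used for Trpc4 lies 43.5 kb inside the outer limit of the gene. The windows of Trpc4 at chr2:140501046-140501345 (plus strand), of its neighbour Postn at chr2:140677811-140678110 (plus strand), of Stim1 at chr1:166067964-166068263 (plus strand) and of Orai1 at chr12:39208981-39209280 (minus strand) read as follows, with capitals at the motif matches named after them.
Trpc4: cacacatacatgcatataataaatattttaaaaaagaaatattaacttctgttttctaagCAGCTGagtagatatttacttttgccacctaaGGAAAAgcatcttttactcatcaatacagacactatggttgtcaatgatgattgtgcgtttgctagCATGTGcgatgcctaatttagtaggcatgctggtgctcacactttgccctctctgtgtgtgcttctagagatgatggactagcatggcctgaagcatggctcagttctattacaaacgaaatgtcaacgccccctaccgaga
Postn: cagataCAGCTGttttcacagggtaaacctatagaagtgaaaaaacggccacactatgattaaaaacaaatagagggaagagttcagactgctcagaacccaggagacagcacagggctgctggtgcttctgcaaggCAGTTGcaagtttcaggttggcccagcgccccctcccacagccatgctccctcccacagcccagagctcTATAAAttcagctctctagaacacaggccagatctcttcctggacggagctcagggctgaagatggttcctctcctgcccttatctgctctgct
Stim1: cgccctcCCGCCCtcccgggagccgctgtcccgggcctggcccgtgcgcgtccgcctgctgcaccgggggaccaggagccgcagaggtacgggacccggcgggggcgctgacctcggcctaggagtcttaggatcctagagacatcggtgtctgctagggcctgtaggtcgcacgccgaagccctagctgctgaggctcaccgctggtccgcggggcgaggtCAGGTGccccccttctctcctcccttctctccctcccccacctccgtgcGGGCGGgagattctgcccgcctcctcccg
Orai1: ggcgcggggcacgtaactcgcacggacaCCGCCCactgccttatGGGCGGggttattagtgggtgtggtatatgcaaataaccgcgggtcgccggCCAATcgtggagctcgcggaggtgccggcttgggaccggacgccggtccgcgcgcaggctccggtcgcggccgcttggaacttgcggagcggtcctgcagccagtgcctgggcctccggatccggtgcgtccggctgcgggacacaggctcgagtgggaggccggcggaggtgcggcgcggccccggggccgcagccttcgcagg

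The Trpc4 window held 39.7% G and C and 5 CpG dinucleotides, against a median of 51.7% and 7 over 33469 windows of the same length. Only 11.3% of these windows had a lower G and C content. With its start 43.5 kb inside the outer limit of the gene, the Trpc4 window is not shown to be a promoter used in aorta. Its content is therefore not read as that of the Trpc4 promoter. The windows of Stim1 (72.7%), Stim2 (71.7%) and Orai1 (72.3%) were rich in G and C and held 29, 42 and 41 CpG dinucleotides. Those of Trpc6 (65.3%), Trpc5 (56.3%) and Orai3 (56%) lay between, and that of Postn held 52%. Motifs were searched on both strands as the TATA box TATAAA (in 14.2% of all windows), the CCAAT box CCAAT (37.5%), the GC box GGGCGG (33.1%), the E box CANNTG (72.1%), the NFAT core GGAAAA (24.7%), the AP-1 site TGANTCA (7.33%) and the CArG box (1.64%). In Trpc4 the capitals mark 2 E boxes and 1 NFAT core, and in Postn 1 TATA box and 2 E boxes. In Stim1 they mark 2 GC boxes and 1 E box, and in Orai1 1 CCAAT box and 2 GC boxes. These matches are descriptions of letters, and no measurement here bears on binding.

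Among the channels, Trpc4 separated the strains. Trpc4 forms receptor-operated cation channels, alone or together with Trpc1, and is known in endothelium and in smooth muscle. The SHR arrays read 5.13, 5.76 and 5.87, and the WKY arrays 2.84, 2.69 and 2.12. Every SHR array lay above every WKY array, and the lowest SHR value was 2.29 above the highest WKY value. The strain means were 5.59 ± 0.40 (SD, n = 3) and 2.55 ± 0.38, and the difference was 3.04 ± 0.27 (SE) on the log2 scale, which 5 of 21659 tested probe sets exceeded in size. The WKY arrays lay near the array medians, and WKY replicate 3 below its own, so the difference of levels is no estimate of a fold in RNA. In the limma fit over all tested probe sets Trpc4 was the 1 of 8 tested members to pass at an adjusted p under 0.05. That call was made for 0.0693% of all tested probe sets, and nothing is read from the member count, since the call led to the choice of the genes. With 1 array left out at a time the difference stayed between 2.82 (without WKY replicate 3) and 3.27 (without SHR replicate 1). Among these 6 fits the call held only without SHR replicate 1. It ended without SHR replicate 2 (difference 2.95), SHR replicate 3 (2.89), WKY replicate 1 (3.18), WKY replicate 2 (3.11) or WKY replicate 3 (2.82). With all 6 arrays and the replicate numbers as a block the call also ended, at a difference of 3.04.

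**Figure D1:**
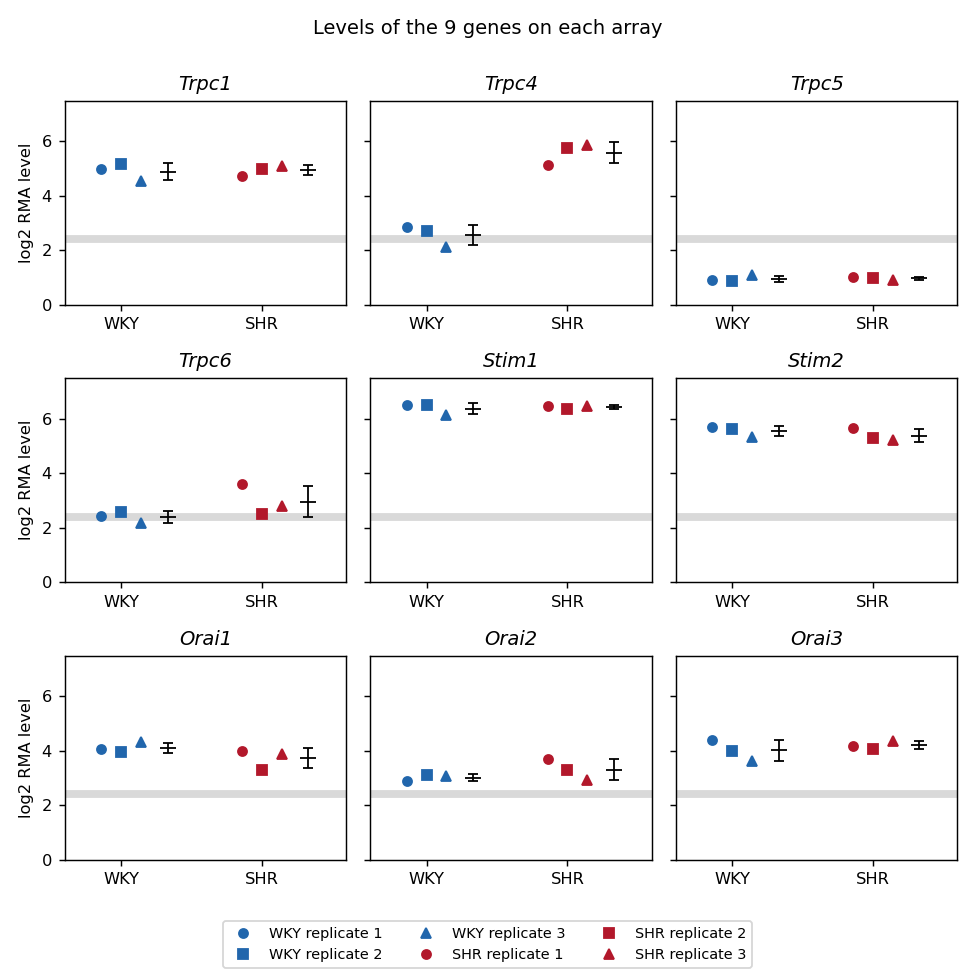
Log2 RMA level of each of the 9 genes on every array, WKY in blue and SHR in red, with a marker shape for each replicate number. The black bar beside each strain is the mean with its SD over 3 arrays, and the grey band spans the array medians from 2.29 to 2.52. Only in the Trpc4 panel do the strains separate, and Trpc5 lies under the band on all 6 arrays.

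The other TRPC channels overlapped between the strains. Trpc1, a widely expressed subunit that joins other TRPC proteins in mixed channels, lay at 4.73, 4.99 and 5.11 in SHR and at 4.97, 5.16 and 4.54 in WKY. Its difference was 0.06 ± 0.20 (SE), and it was -0.12 without WKY replicate 3, the array with its lowest value. The sign also turned without SHR replicate 3 (-0.03), without both WKY replicate 3 and SHR replicate 1 (-0.01) and with array weights (-0.06). Trpc5, the closest relative of Trpc4 and mostly known from the nervous system, lay at 1.02, 0.98 and 0.90 in SHR and at 0.90, 0.85 and 1.07 in WKY. It was below the median on all 6 arrays and below the level of 1.17 required for testing, with a difference of 0.03 ± 0.13 (SE) in the fit without that filter.

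Trpc6, which is opened by diacylglycerol and is known in vascular smooth muscle, lay at 3.60, 2.50 and 2.79 in SHR and at 2.44, 2.58 and 2.17 in WKY. SHR replicate 1 was high, replicate 2 lay among the WKY arrays and replicate 3 a little above them. The difference was 0.57 ± 0.29 (SE), and 0.25 without SHR replicate 1. Apart from that array, Trpc6 lay near the array medians, on WKY replicate 3 below its own, and is not shown to lie above background. Its SD within strains, 0.43, was larger than that of 85.1% of the tested probe sets. SHR replicate 1 also carried the highest level of sympathetic neuron markers, with a mean of 5.69 over the 7 of 7 listed genes against 1.89 to 2.36 on the other 5 arrays. The Schwann cell markers, 4 of 6 listed genes, had a mean of 4.51 there against 2.86 to 3.40 elsewhere. Of these 4, Cdh19 lay at 4.69 there against 1.52 to 2.45 elsewhere, and S100b at 6.57 against 3.23 to 6.05. Ncmap lay at 3.47 against 2.37 to 3.16. Sox10 lay at 3.29 there and was higher, at 3.47, on WKY replicate 3. The endothelial, fibroblast, white adipocyte and macrophage lists were also highest on SHR replicate 1. The part of any of these cells in the level of Trpc6 was not tested.

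The store sensors overlapped as well. Stim1, the main calcium sensor of the store, lay at 6.48, 6.36 and 6.49 in SHR and at 6.51, 6.50 and 6.14 in WKY. Its 6 values were close together apart from WKY replicate 3, and its difference was 0.06 ± 0.16 (SE). The sign turned without WKY replicate 3 (-0.06), without both that array and SHR replicate 1 (-0.08), with array weights (-0.06) and with a further quantile normalization (-0.02). Stim2, a sensor that responds to smaller losses of stored calcium, lay at 5.66, 5.29 and 5.21 in SHR and at 5.70, 5.62 and 5.35 in WKY. Its difference was -0.17 ± 0.18 (SE), and it reached -0.31 without SHR replicate 1. The high values of Stim2 were on SHR replicate 1 and on WKY replicates 1 and 2, and the lowest on SHR replicate 3. Endothelial markers, 6 of 8 listed genes, had means of 6.50, 5.05 and 4.46 in SHR and 6.26, 5.77 and 5.47 in WKY, again highest on SHR replicate 1 and WKY replicates 1 and 2 and lowest on SHR replicate 3. White adipocyte markers, 7 of 7 listed genes, ran from 4.04 on SHR replicate 3 to 7.90 on SHR replicate 1. Their part in the level of Stim2 was not tested.

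The ORAI genes encode the pore of the store-operated channel. Orai1, the main pore subunit, lay at 4.01, 3.30 and 3.89 in SHR and at 4.07, 3.96 and 4.32 in WKY. SHR replicates 2 and 3 lay below the WKY arrays, replicate 2 by more, and the difference of -0.38 ± 0.22 (SE) was -0.16 without replicate 2. Orai2, a subunit that can lower the activity of mixed channels, lay at 3.69, 3.29 and 2.93 in SHR and at 2.88, 3.11 and 3.07 in WKY. SHR replicate 1 was again the highest, and the difference of 0.29 ± 0.21 (SE) was 0.09 without it. Macrophage markers, 8 of 8 listed genes, were highest on the same array, at a mean of 6.17 against 3.75 to 5.48 on the others. The endothelial, fibroblast, white adipocyte, sympathetic neuron and Schwann cell lists were also highest there. The next highest macrophage mean, 5.48, was on WKY replicate 1, where Orai2 was at its lowest, 2.88. The part of any of these cells in the level of Orai2 was not tested. Orai3, found in mammals only, lay at 4.18, 4.08 and 4.36 in SHR and at 4.40, 3.998 and 3.65 in WKY. Its difference of 0.19 ± 0.21 (SE) fell to 0.01 without WKY replicate 3.

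Over the members, the strains did not overlap for 1 of 9, Trpc4, beside 12.1% of all tested probe sets. The other 7 tested members differed by -0.38 to 0.57, and the median over all 8 tested members was 0.13 beside -0.01 over all tested probe sets. Of the 8, 6 lay above 0 and 2 below. This median and these counts include Trpc4, by whose difference the set was chosen, so nothing is read from them. Among the other 7 the middle value was that of Stim1, 0.06. None of these 7 differences reached 2 times its standard error, which ran from 0.16 to 0.29, and this does not show that the strains are alike. WKY replicate 3 held the lowest value for 5 of the 9 members and the highest for 2.

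**Figure D2:**
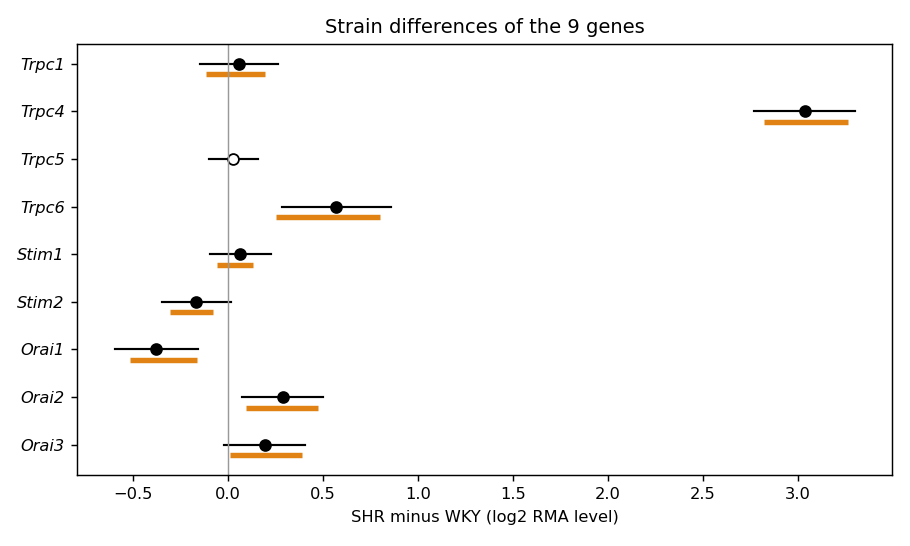
SHR minus WKY difference of each gene on the log2 scale, as points with black lines of 1 SE either side from the fit over all probe sets. The open point is Trpc5, which was under the level required for testing, and orange bars span the differences with each array left out in turn. Trpc4 lies near 3.04 and the other genes between -0.38 and 0.57.

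**Figure D3:**
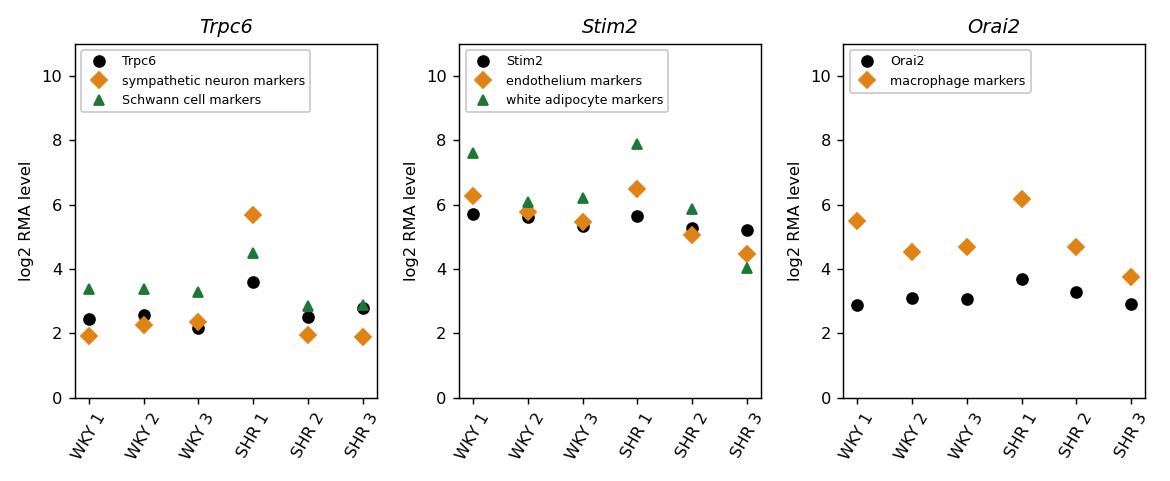
Log2 RMA levels of Trpc6, Stim2 and Orai2 on each array (black) beside the mean level of marker lists (coloured). Trpc6 and the means of the neuronal and Schwann cell lists are highest on SHR replicate 1. Stim2 and the mean of the endothelial list are lowest on SHR replicate 3. Orai2 and the macrophage markers are highest on SHR replicate 1, but on WKY replicate 1 the macrophage markers are next highest and Orai2 is lowest.

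Marker lists of 10 cell types were read beside the strain difference of Trpc4. In 9 of the 10 the strain means overlapped, among them smooth muscle, endothelium and fibroblasts. The skeletal and cardiac muscle list, 7 of 11 listed genes, was the exception, at 2.78 to 2.84 in SHR and 2.85 to 3.34 in WKY. Lymphocyte markers, 6 of 7 listed genes, lay at 1.37 to 1.66 on all arrays, and 4 of the 6 were below the median everywhere. Although adhering fat was removed, 6 of the 7 white adipocyte genes were above the median on all arrays. Their list means ran from 4.04 on SHR replicate 3 to 7.90 on SHR replicate 1. Brown adipocyte means, 6 of 6 listed genes, ran from 2.96 on SHR replicate 3 to 5.94 on WKY replicate 1. The sympathetic neuron, Schwann cell, white adipocyte, endothelial, fibroblast and macrophage lists were highest on SHR replicate 1. The level of Trpc4 on that array was the lowest of the SHR arrays. The part of these cell types in the level of Trpc4 was not tested.

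The genes on either side of Trpc4 were read for their own strain differences, and a cause shared with Trpc4 was not tested. The 5 nearest measured protein-coding genes on each side in the RefSeq order were tested in the same fit. Postn encodes periostin, a matricellular protein of the arterial wall, and is the next protein-coding gene after Trpc4. It lay at 9.97, 10.23 and 10.29 in SHR and at 8.94, 9.07 and 8.10 in WKY, so that every SHR array was above every WKY array. The difference was 1.46 ± 0.27 (SE) and did not pass (limma adjusted p = 0.261). With array weights it was 1.25 and passed (limma adjusted p = 0.0338), where the 14 alternatives gave adjusted p from 0.0338 to 0.966 and differences from 1.16 to 1.64, with 2 passing. On the other side Ufm1, which encodes a ubiquitin-like protein modifier, lay at 5.23, 5.49 and 5.08 in SHR and at 4.98, 5.16 and 4.37 in WKY, a difference of 0.43 ± 0.23 (SE) with overlapping strains. Without WKY replicate 3 the difference of Ufm1 was 0.20.

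The remaining neighbours were Nhlrc3, Proser1, Stoml3 and Frem2 before Ufm1 and Supt20h, Exosc8, Alg5 and Smad9 after Postn. Smad9, a signal transducer of BMP receptors, lay at 5.72, 6.22 and 6.09 in SHR and at 5.82, 6.10 and 4.95 in WKY, a difference of 0.38 ± 0.31 (SE), and of 0.05 without WKY replicate 3. Together with Ufm1 these 9 neighbours differed by -0.13 to 0.43, all with overlapping strains, and the smallest limma adjusted p among them was 0.923. Stoml3 and Frem2 lay below the medians, at strain means of 1.24 to 1.31 and 1.72 to 1.85. Of the 10 neighbours 0 passed in limma and 1, Postn, had an unadjusted p under 0.05, beside 5.55% of all tested probe sets. The strains did not overlap for 1 of the 10, again Postn, beside 12.1% of all tested probe sets.

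**Figure D4:**
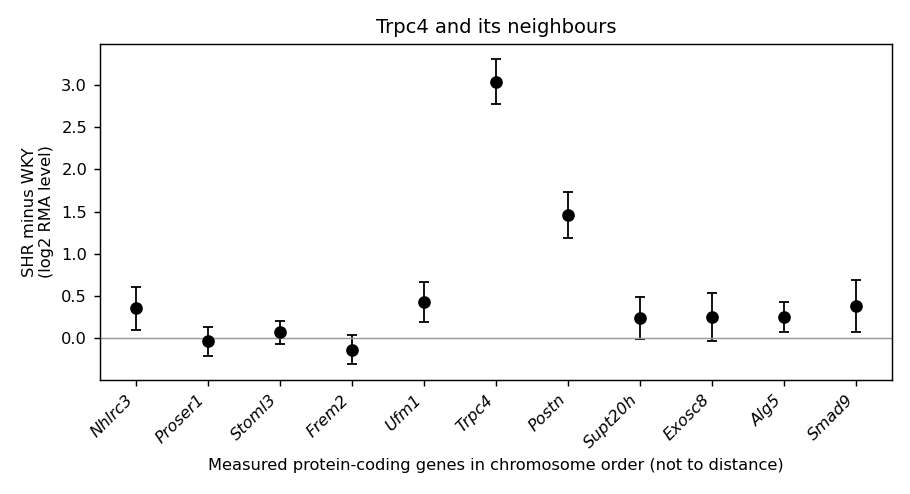
SHR minus WKY difference (log2 RMA level, bars of 1 SE either side) of Trpc4 and of the 5 nearest measured protein-coding genes on each side, placed in chromosome order and not by distance. Trpc4 at 3.04 and the adjacent Postn at 1.46 stand above the other neighbours, which lie between -0.13 and 0.43.

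The genes whose levels followed each member most closely were sought among 6787 named protein-coding genes, by Pearson r over the 6 arrays. These r values describe 6 points that share their arrays and, for Trpc4, fall into 2 clusters by strain. For Trpc4 the closest were Clec2gl1 (r = 0.999), a C-type lectin gene, Fam174b (0.998) and Uaca (0.997). Each of these 3 was higher on every SHR array, at means of 4.23 against 1.77, 4.68 against 3.96 and 6.53 against 5.42. This separation follows from the high r with Trpc4, so nothing is read from it. Clec2gl1 lay at 1.50 to 1.96 in WKY, below the array medians. For Trpc6 the closest were Gap43 (0.977), a protein of growing axons, Myo5a (0.975), a motor that carries vesicles, and Cdh19 (0.967). Cdh19 is a cadherin of Schwann cells and is itself in the Schwann cell list. Cdh19 lay at 4.69 on SHR replicate 1 and between 1.52 and 2.45 on the other arrays.

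For Stim2 the closest were Rasgrp3 (0.998), an activator of Ras proteins that binds diacylglycerol, S1pr1 (0.995), a receptor of sphingosine 1-phosphate abundant in endothelium, and Spns2 (0.993), the endothelial exporter of that lipid. S1pr1 lay at 5.93, 4.74 and 4.56 in SHR and at 6.21, 5.77 and 4.95 in WKY, the same order of arrays as Stim2, with the strains overlapping. For Stim1 they were Sgcb, Cnot1 and Atf2 (0.998 to 0.994), and for Trpc1 Agtpbp1, Cds2 and Tbc1d7 (0.985 to 0.975), all of them lowest on WKY replicate 3. For Orai2 they were Il6 (0.984), an inflammatory cytokine, Qpct (0.982) and Il18rap (0.981), a receptor subunit of the interleukin family. All were highest on SHR replicate 1. On the other arrays Il18rap lay at 1.58 to 1.99, below the medians. Il6 lay below the medians, at 1.86 to 2.40, on SHR replicate 3 and the WKY arrays. These levels are not shown to lie above background. Orai1 (Cpne7, Tbcc and Celf3, 0.961 to 0.952) and Orai3 (Hycc2, Ripor2 and Cep76, 0.983 to 0.979) complete the tested members.

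Other genes of the pathway were read from 4 lists, 77 tested genes in all. In limma 0 of the 77 passed, and 7 (9.09%) had an unadjusted p under 0.05, beside 5.55% of all tested probe sets. Of the 7, SHR was the higher strain for 3 (3.01% of all tested probe sets) and the lower for 4 (2.54%). The strains did not overlap for 17 (22.1%), beside 12.1% of all tested probe sets. In 10 of them SHR was higher (6.48% of all) and in 7 lower (5.61%). The median difference over the 77 was 0.01, and it was 0.01 over all genes tested.

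Of 19 other TRP channels tested, 0 passed in limma, and 3 (15.8%) had an unadjusted p under 0.05, all lower in SHR. Over all tested probe sets 5.55% had such a p, and 2.54% had it and were lower in SHR. The strains did not overlap for 7 (36.8%), beside 12.1% of all tested probe sets, with SHR higher in 4 and lower in 3. Those higher were Trpv6, Trpm1, Trpm7 and Pkd2. Trpm3, a channel opened by heat and steroids, lay at 3.71, 3.27 and 3.32 in SHR and at 4.03, 4.28 and 3.91 in WKY (difference -0.64 ± 0.18 SE, limma adjusted p = 0.63). Trpm8, the cold and menthol receptor, lay at 4.75, 4.95 and 5.49 in SHR and at 5.69, 5.78 and 5.69 in WKY (-0.66 ± 0.21 SE, limma adjusted p = 0.74). For both genes all SHR arrays were below all WKY arrays. Trpm1, Trpv3 and Trpv6 were below the median on all 6 arrays, with differences of 0.18, -0.49 (-0.31 without WKY replicate 3) and 0.30. The TRPC relatives Trpc2 and Trpc7 were dim, with strain means between 1.37 and 1.93 and differences of -0.10 and -0.18.

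Of 19 partners of STIM, ORAI and TRPC proteins 0 passed and 0 had an unadjusted p under 0.05 in limma. The strains did not overlap for 2 (10.5%), Nherf1 and Cracr2b (-0.316), both lower in SHR, beside 12.1% of all tested probe sets. Nherf1, a scaffold that binds the tail of Trpc4, lay at 4.75, 4.79 and 4.37 in SHR and at 5.15, 5.06 and 4.89 in WKY, with no overlap and a difference of -0.40 ± 0.17 (SE; limma adjusted p = 0.903), and -0.26 without SHR replicate 3. Homer2, a scaffold that links TRPC channels to IP3 receptors, differed by -0.72 ± 0.33 (SE), and by -0.47 without SHR replicate 3. Asph, whose products include a calcium-binding protein of the reticulum membrane, and Rnf24, a membrane ring finger protein that binds TRPC channels, differed by 0.33 and 0.41 with overlapping strains, and Rnf24 by 0.22 without WKY replicate 3.

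Of 26 genes of Gq, phospholipase C, diacylglycerol and IP3 signalling 0 passed in limma. An unadjusted p under 0.05 was found for 2 (7.69%), 1 in each direction, beside 5.55% of all tested probe sets. Dgkz, a kinase that removes diacylglycerol, lay at 3.66, 3.75 and 3.53 in SHR and at 4.08, 3.92 and 4.14 in WKY (-0.40 ± 0.15 SE, limma adjusted p = 0.847). Prkca, a protein kinase that calcium and diacylglycerol activate, lay at 5.92, 5.93 and 5.62 in SHR and at 4.96, 5.61 and 5.27 in WKY (0.55 ± 0.20 SE, limma adjusted p = 0.86). The strains did not overlap for 5 of the 26 (19.2%), beside 12.1% of all tested probe sets. They were Dgkz and Prkca, Dgkd (0.315), and the phospholipase genes Plcb4 (0.49, and 0.24 without WKY replicate 3) and Plce1 (-0.32). Among the IP3 receptors, named after their values were seen, Itpr1 differed by 0.06, Itpr2 by -0.74 and Itpr3 by -0.18, with overlapping strains. The standard error of Itpr2 was 0.43.

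Of 13 genes of calcineurin and NFAT 0 passed in limma. An unadjusted p under 0.05 was found for 2 (15.4%), both higher in SHR. Over all tested probe sets 5.55% had such a p, and 3.01% had it and were higher in SHR. The strains did not overlap for 3 (23.1%), Rcan1, Rcan2 and Dyrk1a, all higher in SHR. Among all tested probe sets the strains did not overlap for 12.1%, with SHR higher for 6.48%. Rcan2 and Rcan1 encode regulators that bind calcineurin, and a transcript of Rcan1 is a known target of NFAT. Rcan1 lay at 9.07, 8.68 and 8.97 in SHR and at 8.64, 8.08 and 7.30 in WKY (0.90 ± 0.33 SE, limma adjusted p = 0.845). Its strains did not overlap, but the highest WKY array and the lowest SHR array were close, and the difference was 0.54 without WKY replicate 3. Rcan2 lay at 6.32, 6.36 and 6.59 in SHR and at 6.07, 5.79 and 5.43 in WKY (0.66 ± 0.20 SE, limma adjusted p = 0.668), and at 0.49 the difference was smallest without WKY replicate 3. The calcineurin subunit Ppp3cc differed by 0.42 with overlapping strains, and by 0.26 without WKY replicate 3. Dyrk1a, a kinase that opposes NFAT, differed by 0.40, and by 0.11 without WKY replicate 3.

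**Figure D5:**
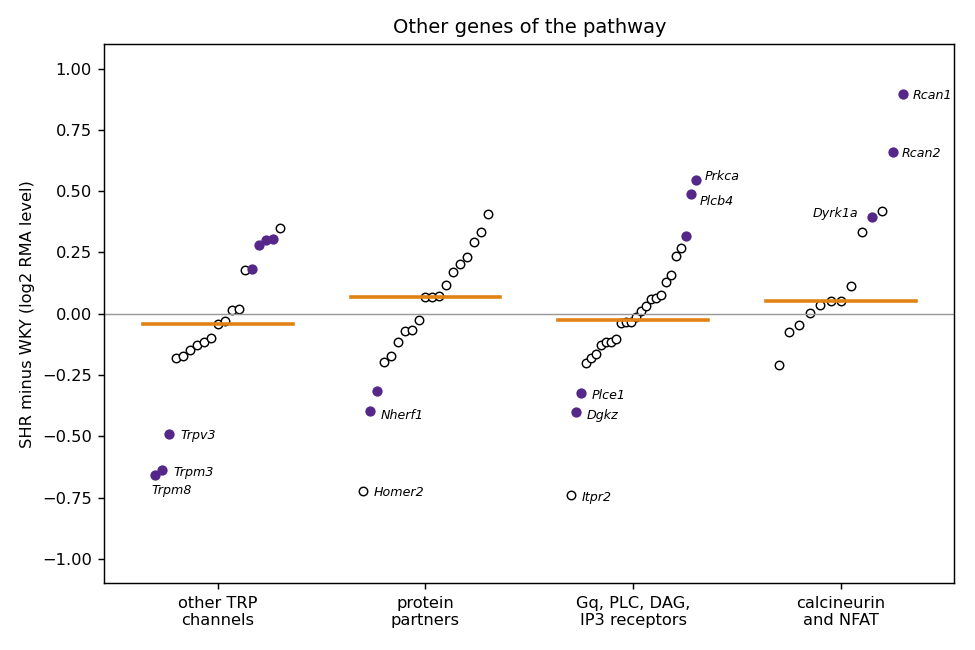
SHR minus WKY difference (log2 RMA level) of each tested gene in the 4 pathway lists, ordered within a list. Filled points are genes whose strains do not overlap, open points those that overlap, and orange bars are list medians, which lie between -0.04 and 0.07. No gene shown passed in limma, and the points run from -0.74 (Itpr2) to 0.90 (Rcan1).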

How the data were processed

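RNA was measured on 6 Affymetrix Rat Gene 2.0 ST arrays, 3 of SHR and 3 of WKY aorta, grouped by the sample titles. The authors deposited 1 table of log2 values for 28879 probe sets, for which the submitters' processing notes name RMA and Affymetrix Expression Console (version 1.2.1). The log2 base follows from RMA and the range of the values. The annotation version and the build of the genome were not given in the sources used here. Symbols came from the platform annotation and were updated through Entrez identifiers to RefSeq GRCr8. A probe set was tested if its mean was at or above the 25th percentile, which kept 21659. The tool was limma 3.58.1 (R 4.3.3), with lmFit, eBayes and strain as the only term, two-sided, with Benjamini-Hochberg adjustment over all tested probe sets, and the script was tested on simulated data. Differences are SHR minus WKY. A gene with several probe sets was represented by the brightest.

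The members, the gene lists and the tests were chosen with earlier results of these data known. Named genes are the members, the 4 genes of each pathway list with the smallest unadjusted p, the 5 nearest measured protein-coding genes on each side of Trpc4, and for each member the 3 named protein-coding genes with the highest r. The last were taken among genes with the larger SDs, at or above the median, over the arrays. Other genes were named after their values were seen. Alternatives were a replicate block, other filters, further normalization, other variance models, array weights and leaving out arrays. No array was identical to another.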

Additional observations from a re-analysis of the deposited data

How the results depend on the processing

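Leaving out 1 array at a time gave 2 to 5 passing probe sets in place of 15 and 0 to 1 passing members in place of 1, with 0 pathway genes and 0 Trpc4 neighbours passing throughout. The count of probe sets was 65 with array weights, 30 at an adjusted p under 0.10 and 115 when SHR replicate 1 and WKY replicate 3 were both left out, which was chosen after seeing the data. Among the neighbours 1 gene, Postn, passed with array weights (1.25) and without those 2 arrays (1.26, limma adjusted p = 0.0499, the 14 alternatives ranging from 0.0338 to 0.966). Over the 14 alternatives Trpc4 kept a difference between 2.82 and 3.27 and passed in 8. Without both arrays Trpc6 differed by 0.14 and Stim2 by -0.41. With each array left out in turn, the differences ran from -0.12 to 0.19 for Trpc1, 0.25 to 0.80 for Trpc6, -0.06 to 0.13 for Stim1, -0.31 to -0.08 for Stim2, -0.52 to -0.16 for Orai1, 0.09 to 0.47 for Orai2 and 0.01 to 0.39 for Orai3.

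Whether the replicate numbers pair the arrays is not settled. Deviations from the strain means correlated at 0.354, -0.079 and 0.228 for numbers 1 to 3. The arrays of numbers 1 and 3 matched their own number best, and those of number 2 did not. With the replicate block 3 probe sets and 0 members passed, so the call of Trpc4 ended at the same difference (3.04). Small differences of neighbours changed sign, namely Proser1 with median centring (0.011) and between -0.17 and 0.072 without single arrays, and Frem2 between -0.25 and 0.02 without single arrays and 0.046 without both arrays. Supt20h was -0.029 with array weights, -0.067 without both arrays and from -0.004 to 0.46 without single arrays, and Exosc8 was -0.079, -0.23 and from -0.01 to 0.41 in the same settings. The cause was not tested. Each member has 1 probe set, so the mean of several could not be formed, and Trpc5 entered only the fit without a filter. The number of arrays limits the precision.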
